A study of Mus musculus with 90 samples.

Results

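Isolated H3K4me3 regions are stretches of chromatin trimethylated on lysine 4 of histone H3 that lie far from any other such region. They were chosen from peak lists of V6.5, a line of mouse embryonic stem cells. Overlapping autosomal peaks of 2 H3K4me3 libraries were merged, and a region was kept where it held peaks of both libraries, was at most 5000 bp wide, and overlapped a peak of each of 2 Mll2 libraries and of a Menin library. It was called isolated where the next region with peaks of both H3K4me3 libraries was more than 200 kb away on each side. Of 18336 autosomal regions with peaks of both H3K4me3 libraries, 661 met every condition. A further 13598 regions met every condition except the distance and are called non-isolated here.

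The series asked how the methyltransferase Mll2 contributes to H3K4me3 in embryonic stem cells and in their differentiation, and 5 of its 90 samples were used here, all from chromatin immunoprecipitation and sequencing (ChIP-seq). The H3K4me3 libraries (replicates 1 and 3, antibody number 28) came from cells with a lentiviral control hairpin against GFP; the labels' protocol describes selection of hairpin cells with puromycin. The Mll2 libraries were made with the sera 9172 and 9175, 1 library each, and Menin has 1 library, none of them with a hairpin in its labels. All 5 libraries are of wild-type genotype. H3K4me3 and the proteins may therefore come from different cell preparations. The labels leave unsaid if replicates 1 and 3 of H3K4me3 were grown as separate cultures.

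Mll2 is a histone methyltransferase of the COMPASS family, which places methyl groups on lysine 4 of histone H3, and it carries a CXXC domain, a zinc finger that binds unmethylated CpG dinucleotides. Menin is a subunit shared by the complexes of Mll1 and Mll2 and helps to hold them on chromatin. H3K4me3 marks the promoters of active genes and, together with Polycomb marks, many silent developmental genes in embryonic stem cells. Such marked regions usually cluster where genes are dense, and gene-poor stretches of chromosome hold few of them.

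Depth ranged from 11550409 kept tags (Menin) to 21936546 (H3K4me3 replicate 1) after duplicates were removed by the authors, and the lists held from 19912 peaks (H3K4me3 replicate 3) to 43544 (Menin). A peak missing from a list was a site not called at that depth. Levels are given as tags per kb, the ChIP tags in the peaks over a region divided by the length of those peaks, and they are compared within a library only. Regions of 1 library are not replicates, so no test was made over regions. Shares carry exact Clopper-Pearson 95% intervals, which cover counting error only and count regions as if independent. Coordinates are of the build mm9 and count from 1, and no gene annotation or sequence of that build was used here.

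The distances that chose the members are given as a description. The gap to the nearer neighbour had a median of 312.7 kb, with quartiles of 242.2 and 467.1 kb, and reached 2093 kb, while the median over non-isolated regions was 18.5 kb. In 137 of the 661 regions the nearer gap was over 500 kb, and in 31 it was over 1000 kb. The whole stretch without another region, from the neighbour on the left to the neighbour on the right, had a median of 1030.1 kb and reached 12237.5 kb. A stricter reading of isolation also held for many: 356 of the 661 lay more than 200 kb from any H3K4me3 peak of either library. At the distance limit, the last region inside lay at chr8:69008901-69011091 with a nearer gap of 200.2 kb, and the first outside lay at chr10:53098468-53100246 with 199.8 kb. At the width limit, the widest member spanned 4959 bp at chr3:86347626-86352584, and the narrowest left out spanned 5004 bp at chr1:133421045-133426048.

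Many members followed each other along a chromosome. The 661 regions formed 495 runs of direct neighbours, of which 373 were a single region and 122 held 2 or more, with 288 regions between them. The longest run held 5 regions on chromosome 4, between 73658967 and 77858426, over 4199 kb. Its second region, chr4:73896613-73900170, had 432 and 270.4 H3K4me3 tags per kb in replicates 1 and 3, 79.9 and 61.1 tags per kb with sera 9172 and 9175, and 77.6 Menin tags per kb. Its last region, chr4:77857157-77858426, had 79.9 and 59.5 H3K4me3 tags per kb, 71.6 and 55.6 with the sera, and 34.1 for Menin. Over all 5 regions of the run, H3K4me3 ranged from 79.9 to 432 tags per kb in replicate 1 and from 47.8 to 270.4 in replicate 3, serum 9172 from 47.8 to 83.0, serum 9175 from 38.9 to 66.8 and Menin from 34.1 to 77.6. The first region, chr4:73658967-73660364, had the lowest values with both sera and in H3K4me3 replicate 3.

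By autosome, the members made up between 1.82% and 8.17% of the regions that met the other conditions, against 4.64% of 14259 regions on all autosomes. Chromosome 11 had the lowest share, with 22 of 1206 regions (interval 1.15 to 2.75%). Chromosome 3 had the highest, with 53 of 649 (6.18 to 10.5%), and chromosome 1 held the most members, 59 of 815 (7.24%, 5.56 to 9.24%). The intervals of chromosomes 11 and 3 did not overlap, but these are the lowest and highest of all autosomes, picked after the values were seen. They held 1472 and 833 regions with peaks of both H3K4me3 libraries. The part of this number in the shares was not tested.

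**Figure D1:**
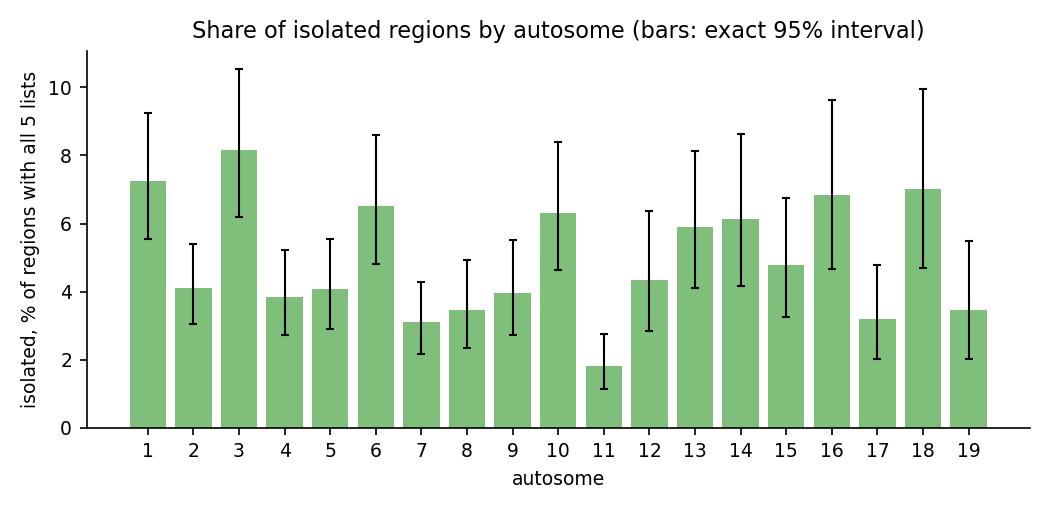
Share of isolated regions on each autosome, in percent of the regions with peaks of all 5 lists and at most 5000 bp; bars on the columns are exact 95% intervals for counting error. Chromosome 11 is lowest at 1.82% and chromosome 3 highest at 8.17%.

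Far from other regions, a smaller share of H3K4me3 regions held peaks of Mll2 and Menin than elsewhere. Of 1002 regions with peaks of both H3K4me3 libraries and gaps of more than 200 kb on each side, the 661 members made up 66.0% (62.9 to 68.9%), whereas 78.6% (78.0 to 79.2%) of 17296 regions with a nearer neighbour met the conditions on lists and width. Over both kinds together 77.9% did. The remaining far regions divided into 191 without any peak of Mll2 or Menin, 139 (13.9%, 11.8 to 16.2%, against 14% of both kinds) with peaks of some but not all of the 3 protein lists, and 11 with all lists but wider than 5000 bp. Those counts account for all of the 1002.

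Each protein list taken alone gave the same order of shares. Serum 9172 had a peak at 74.0% (71.1 to 76.6%) of the far regions and at 85.5% (84.9 to 86.0%) of the others, against 84.8% of both kinds together. Serum 9175 had a peak at 76.6% (73.9 to 79.2%) of the far regions and at 87.3% (86.8 to 87.8%) of the others, against 86.7% together. Menin had the widest difference, with 71.5% (68.6 to 74.2%) of the far regions and 90.4% (90.0 to 90.9%) of the others, against 89.4% together. A region with none of the 3 protein lists was more common in the deserts, at 19.1% (16.7 to 21.6%) against 5.50% (5.16 to 5.85%) of the others and 6.24% together. The share that met the conditions on lists and width was between 74.5 and 81.3% in each bin of the nearer gap up to 200 kb, 68.6% from 200 to 500 kb and 57.6% beyond 500 kb. H3K4me3 level, which was lower at members as given below, was not matched in these shares, and its part in them was not tested.

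Members were close to the other regions in width and lower in H3K4me3. Their median width was 2016 bp (quartiles 1586 and 2605 bp) against 2100 bp (1619 and 2682 bp) for non-isolated regions, and 46.0% (42.1 to 49.9%) of members were wider than the non-isolated median, where 49.8% of all 14259 regions were. The median was lower than that of non-isolated regions on 11 of 19 autosomes and higher on 8. A width difference of this size was therefore not seen on every chromosome. With H3K4me3 replicate 3 left out, 50.6% (45.3 to 55.8%) of the 360 members then found were wider, an interval that includes 50%.

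By the ratio of medians, H3K4me3 itself showed the widest gap between the classes, and both libraries showed it. In replicate 1 the median was 203 tags per kb (quartiles 129 and 300) at members and 266 (142 and 387) at non-isolated regions, a ratio of 0.763. In replicate 3 it was 124 (72.0 and 193) against 165 (77.8 and 252), a ratio of 0.749. The classes overlapped widely, and their upper quartiles differed more than their lower ones. Only 31.9% (28.4 to 35.6%) of members exceeded the non-isolated median in replicate 1, against 49.2% of all regions, and 34.2% (30.6 to 37.9%) did in replicate 3, against 49.3%. On 18 of 19 autosomes the median of members was below that of the non-isolated regions in each of these libraries, the exceptions being chromosome 12 in replicate 1 (248 against 243 tags per kb) and chromosome 13 in replicate 3 (154 against 148).

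By the ratio of medians, the Mll2 sera differed less between the classes than H3K4me3 did. Every region compared needed a peak in each list, and the tags include background. The lowest value of members was 36.0 tags per kb with serum 9172 (median 69.7) and 38.9 in H3K4me3 replicate 1 (median 203). The libraries thus had unlike ranges, and the part of this in the ratios was not tested. With serum 9172 the median was 69.7 tags per kb (quartiles 55.8 and 89.8) at members and 74.8 (56.7 and 97.2) at non-isolated regions, a ratio of 0.931. With serum 9175 it was 60.6 (47.5 and 76.5) against 58.6 (45.3 and 75.8), a ratio of 1.03. Serum 9172 exceeded the non-isolated median at 43.0% (39.2 to 46.8%) of members, against 49.7% of all regions, and serum 9175 at 53.7% (49.8 to 57.6%), against 50.2%. By autosome, members had the lower median on 14 of 19 for serum 9172 and on 8 of 19 for serum 9175. The interval for serum 9175 includes 50% by this measure. Peak length entered these values. With the same tags counted per kb of the H3K4me3 region, serum 9172 exceeded the non-isolated median at 51.1% (47.3 to 55.0%) of members, against 50.1% of all regions, and serum 9175 at 61.4% (57.6 to 65.2%), against 50.5%. Menin did so at 45.7% (41.8 to 49.6%), against 49.8%. Tags of peak parts outside the region are counted in this measure, so it is not the density within the region.

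Menin, the subunit of the Mll1 and Mll2 complexes, had a median of 56.4 tags per kb (46.6 and 69.5) at members and 60.9 (50.6 and 73.0) at non-isolated regions, a ratio of 0.926. It exceeded the non-isolated median at 39.6% (35.9 to 43.5%) of members, against 49.5% of all regions, and the median was lower at members on 15 of 19 autosomes. The direction depended on the measure. By the authors' fold enrichment of the strongest peak, members had 12.8-fold and non-isolated regions 12.1-fold, and 56.7% (52.9 to 60.5%) of members exceeded the non-isolated median, against 50.2% of all regions. Fold enrichment sets a peak against the background that the peak caller estimated there. Menin tags per kb divided by fold had a median of 4.49 at members and 5.00 at non-isolated regions, a ratio of 0.898. This quotient sets the mean over all peaks of a region against its strongest peak, so it does not measure background. The part of background in the difference between the measures was not tested.

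The same quotient was lower at members in both H3K4me3 libraries, with ratios of 0.865 in replicate 1 and 0.897 in replicate 3, and close to 1 with the sera, at 1.01 for serum 9172 and 0.980 for serum 9175. The fold of H3K4me3 differed less between the classes than the tags per kb did. The median H3K4me3 fold was 44.0 at members and 47.5 at non-isolated regions in replicate 1, and 36.5 and 45.2 in replicate 3. For serum 9172 it was 15.7 and 16.4, and for serum 9175 it was 20.4 and 18.8. By fold, 44.2% (40.3 to 48.1%) of members exceeded the non-isolated median in H3K4me3 replicate 1, against 49.7% of all regions, and 38.6% (34.8 to 42.4%) did in replicate 3, against 49.3%. With serum 9172 it was 44.2% (40.3 to 48.1%), against 49.4%, and with serum 9175 it was 55.2% (51.3 to 59.1%), against 49.7%.

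**Figure D2:**
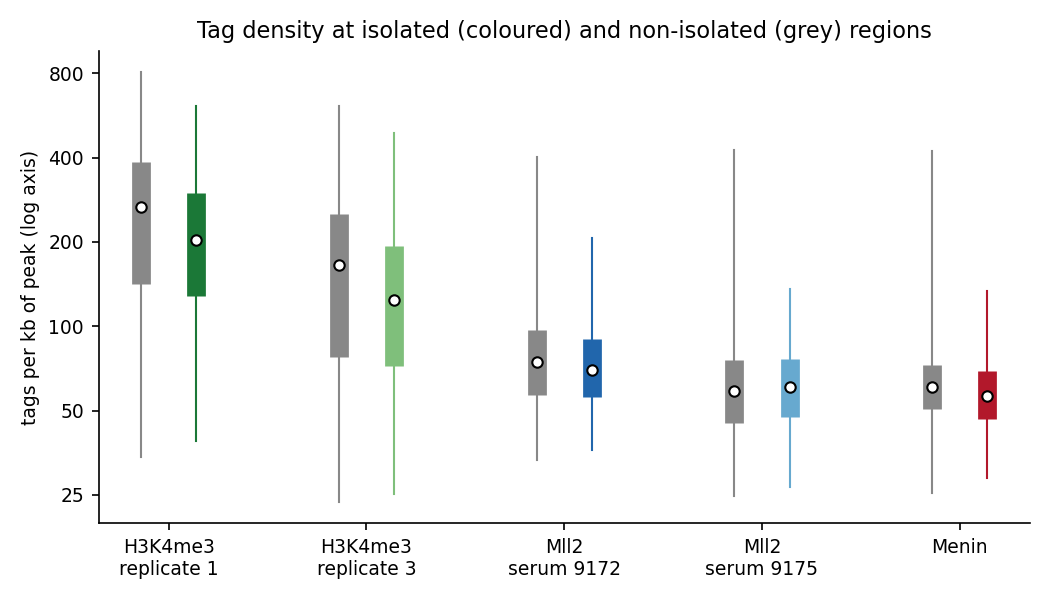
Tags per kb of peak (log axis) at the 661 isolated regions (coloured) and the 13598 non-isolated regions (grey) in each of the 5 libraries; circles are medians, thick bars the quartiles and thin lines the range. The medians differ most in the H3K4me3 libraries (203 against 266 in replicate 1) and least for serum 9175 (60.6 against 58.6).

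Across the whole range of distances, the values at members continued a trend that began well inside 200 kb. H3K4me3 replicate 1 had a median of 215 tags per kb where the nearer gap was up to 5 kb and of 303 at 20 to 50 kb. In the further bins its medians were 274, 238 and 212, and 179.9 tags per kb beyond 500 kb, where 137 regions lay. Replicate 3 took the same course, from 119 through 194 at 20 to 50 kb to 132 at 200 to 500 kb and 111 beyond. Both sera had their highest medians at 50 to 100 kb (81.0 for serum 9172 and 65.8 for serum 9175) and had 69.9 and 61.3 at 200 to 500 kb and 67.3 and 58.5 beyond. Menin had medians between 59.5 and 62.5 tags per kb up to 200 kb and of 57.8 and 52.0 in the last 2 bins. At 100 to 200 kb, just inside the limit, the sera had 77.6 and 64.0 and Menin 60.9, so that serum 9172 differed more across the limit than between the bins on either side of it. Among the members alone the gap ordered the levels little, with Spearman's rho between -0.06 and -0.09 over 661 regions in each of the 5 libraries.

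**Figure D3:**
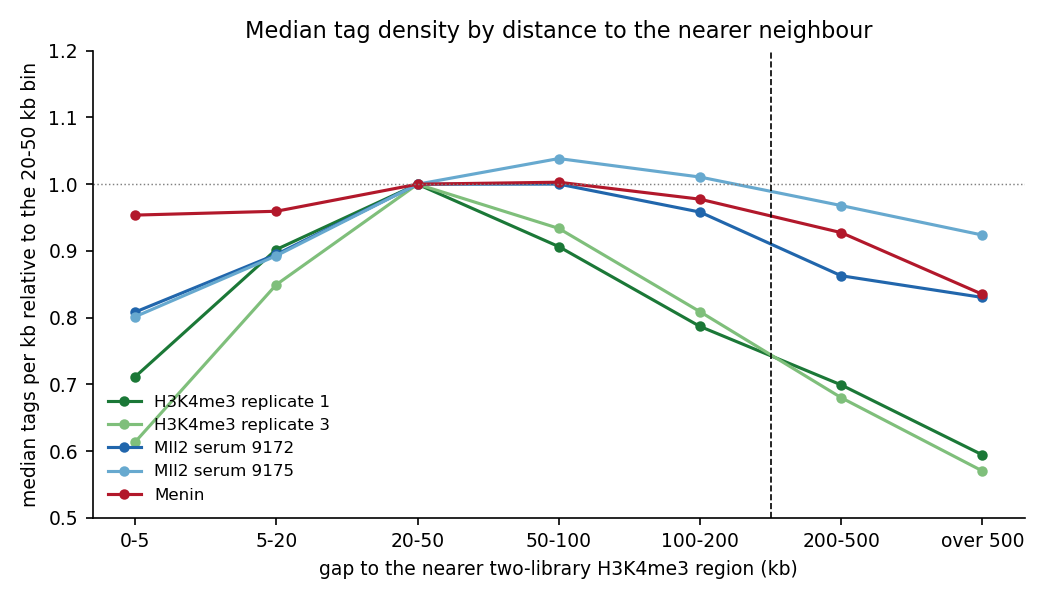
Median tags per kb in bins of the gap to the nearer region with peaks of both H3K4me3 libraries (kb), each library divided by its own value in the 20 to 50 kb bin; the dashed line marks 200 kb, to the right of which the isolated regions lie. H3K4me3 replicate 1 is at 303 tags per kb in the 20 to 50 kb bin and at 179.9 beyond 500 kb, while serum 9175 is at 63.4 and 58.5.

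Since H3K4me3 was lower at members, the proteins were also compared at matched H3K4me3. Regions were placed in 10 classes by the mean log2 tags per kb of both H3K4me3 libraries, with limits set by the non-isolated regions, a comparison added after the values were seen. Members lay mostly in the lower and middle classes, with 73 in the lowest, 105 in the fifth and 25 in the highest. Serum 9175 exceeded the non-isolated median of the same class at 438 of 661 members (66.3%, 62.5 to 69.9%), against 50.7% of all regions, and the median of members was higher in 10 of 10 classes. Serum 9172 did so at 370 members (56.0%, 52.1 to 59.8%), against 50.3% of all regions, and was higher in 8 of 10 classes. Menin did so at 306 members (46.3%, 42.4 to 50.2%), against 49.8% of all regions, and was higher in 2 of 10. Both classes hold only regions with called peaks of all 3 protein lists. Regions without any such peak, 19.1% of far regions and 5.50% of the others, are thus absent. The part of this in the shares was not tested.

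The size of the difference can be read in single classes. In the fifth class serum 9175 had a median of 67.7 tags per kb at members and 59.5 at non-isolated regions, and in the highest class 90.6 and 77.7. Serum 9172 had 77.1 and 73.7 in the fifth class and 106 and 105 in the highest. For Menin the medians were 59.9 and 60.2 in the fifth class and 42.4 and 47.9 in the lowest. When fold enrichment replaced tags per kb throughout, serum 9172 exceeded the class median at 47.4% (43.5 to 51.2%) of members, an interval that includes 50%. By that measure serum 9175 did so at 58.2% (54.4 to 62.0%) and Menin at 57.6% (53.8 to 61.4%).

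**Figure D4:**
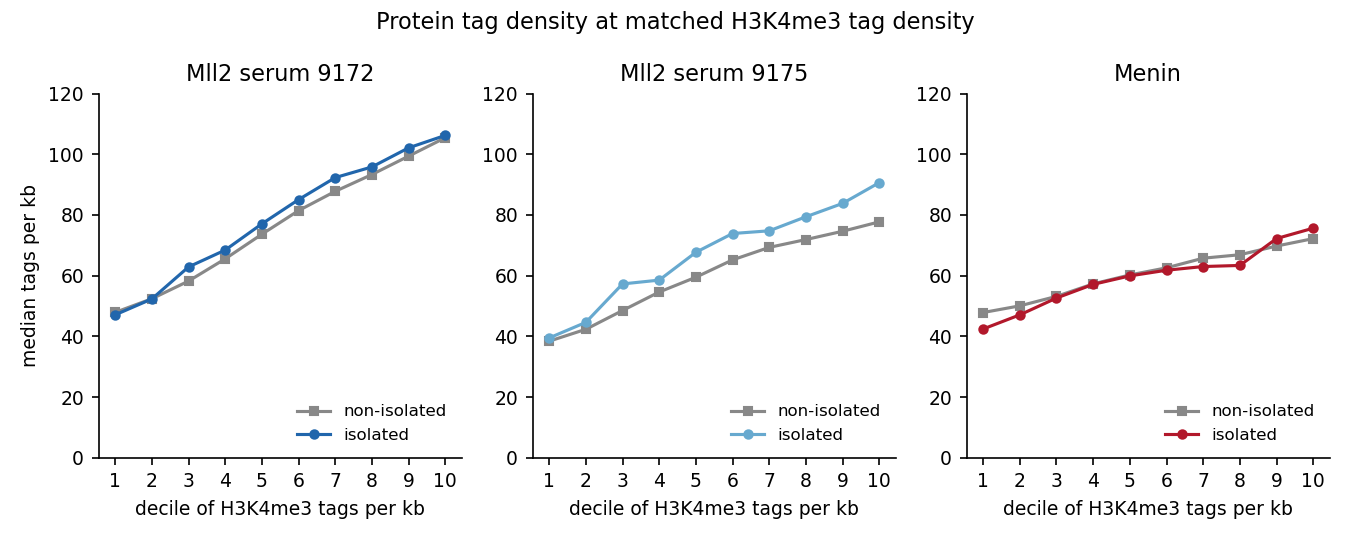
Median tags per kb of each protein library in 10 classes of H3K4me3 tags per kb (1 lowest, 10 highest), for isolated (coloured circles) and non-isolated (grey squares) regions. Serum 9175 is higher at isolated regions in 10 of 10 classes, serum 9172 in 8 and Menin in 2.

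Expressed as a log2 ratio of tags per kb to H3K4me3 replicate 1, which depends on the depth of the libraries and so has meaning only between classes, serum 9172 had a median of -1.45 at members and -1.70 at non-isolated regions. Serum 9175 had -1.65 and -2.01, and Menin -1.78 and -2.04. Set against replicate 3 the medians were -0.76 and -1.02, -0.97 and -1.33, and -1.10 and -1.38 for the same libraries. In each of these pairs the ratio was higher at members, where H3K4me3 was lower. At matched H3K4me3, as given above, Menin exceeded the class median at only 46.3% of members.

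Among the members the libraries ranked the regions much as they ranked the others. Over 661 regions Spearman's rho was 0.888 between the H3K4me3 libraries and 0.857 between the sera. Serum 9172 followed H3K4me3 replicate 3 with a rho of 0.792 and serum 9175 with 0.731, whereas Menin followed H3K4me3 less closely, at 0.428 with replicate 1 and 0.487 with replicate 3. Non-isolated regions gave 0.892, 0.854, 0.769, 0.702, 0.401 and 0.501 for these pairs. All libraries share the genome and its mappable bases, both sera share 1 input library, and wider members had more tags per kb in each of the 5 libraries (rho 0.442 to 0.582), so these values are descriptions.

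The members with the largest gaps show how a region looks in the middle of a desert. The most remote, chr4:28739218-28743412, was 4195 bp wide and lay 2093 kb from its left and 3281 kb from its right neighbour. It had 264 and 178 H3K4me3 tags per kb in replicates 1 and 3, 77.0 and 58.5 tags per kb with sera 9172 and 9175, and 71.9 Menin tags per kb. H3K4me3, serum 9172 and Menin thus stood above the median of members there and serum 9175 slightly below, and no satellite peak, a further peak within 100 kb as defined below, was called. At chr7:11079627-11081043 (1417 bp, nearer gap 1926 kb) H3K4me3 was also high, at 330 and 146 tags per kb, but the sera had only 56.7 and 45.7 and Menin only 39.1. The third, chr14:84842150-84843899 (1750 bp, 1899 kb), was low in all 5 libraries, with 135 and 80.8 tags per kb for H3K4me3, 48.1 and 45.4 for the sera and 33.6 for Menin, and had 8 satellite peaks.

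At the upper end of H3K4me3 stood chr10:27793426-27797265, with 614 tags per kb in replicate 1 and 336 in replicate 3. It had 110 and 107 tags per kb with the sera and 76.2 for Menin, all above the upper quartile of members. At chr11:16406521-16409114 nearly the same H3K4me3, 561 and 303 tags per kb, came with 69.8 and 49.0 tags per kb of the sera and 54.1 of Menin. Serum 9175 and Menin were below their medians over members there and serum 9172 just above its own. High H3K4me3 in both libraries thus occurred at members with high and with ordinary protein signal.

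The lowest replicate 1 value, 38.9 tags per kb, was that of chr15:72377174-72378458, a region of 1285 bp with a nearer gap of 260.9 kb. Replicate 3 had 25.3 tags per kb there, and the sera had 39.9 and 39.2, below the lower quartile of members in all of these libraries. Menin had 75.2, above its upper quartile. A similar pattern stood at chr1:19223899-19224589, among the narrowest members at 691 bp, with 46.3 and 29.0 H3K4me3 tags per kb, 50.2 and 39.6 with the sera and 80.5 for Menin. It had 12 satellite peaks, 7 of them of Menin. At both, Menin tags per kb of peak were high beside little H3K4me3. The 324 Menin tags at chr15:72377174-72378458 came from more peak length than the 1285 bp of the region. Part of that Menin signal can thus lie outside the region.

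Mll2 was highest with serum 9175 at chr8:55161694-55164867, which had 136 tags per kb with that serum and 137 with serum 9172. Menin reached 127 tags per kb there, the second highest among members, beside 334 and 355 H3K4me3 tags per kb, and there was no satellite peak. At chr2:72815185-72819835, a region of 4651 bp, the sera had 155 and 132, Menin 121 and H3K4me3 435 and 491 tags per kb. It was among the 5 highest members with each serum and with Menin, and it had 21 satellite peaks. In contrast, chr14:68330980-68335785 had the highest Menin level, 134 tags per kb, with 84.9 and 67.4 tags per kb of the sera, and chr7:75892653-75895009 had 126 for Menin with 64.8 and 57.9. The highest Menin levels thus occurred with high as well as with ordinary Mll2.

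Peaks outside the regions were counted as satellites. A satellite is a peak whose nearer edge lies within 100 kb of the region and that overlaps neither it nor any region with peaks of both H3K4me3 libraries. The neighbours that the choice of members removed are thus not counted in either class, and an H3K4me3 satellite is a peak of 1 library only. Satellites around those neighbours do count at non-isolated regions, and 1 peak can count for several of them. Menin thus had 102570 satellites counted at non-isolated regions, from a list of 43544 peaks. The difference between the classes is therefore not free of the choice of members. At least 1 satellite of any list occurred at 355 of 661 members (53.7%, 49.8 to 57.6%) and at 92.3% (91.9 to 92.8%) of non-isolated regions, against 90.5% of all 14259 regions. Members had 1262 satellite peaks in all, a median of 1 per region and at most 34, while the median at non-isolated regions was 9.

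The lists differed in their shares. Menin had a satellite at 193 members (29.2%, 25.8 to 32.8%) and at 83.9% of non-isolated regions, against 81.4% of all regions. Serum 9172 had one at 179 members (27.1%, 23.7 to 30.6%) and 70.2% of non-isolated regions, against 68.2%, and serum 9175 at 202 members (30.6%, 27.1 to 34.2%) and 71.2%, against 69.3%. H3K4me3 replicate 1 had one at 171 members (25.9%, 22.6 to 29.4%) and 61.3%, against 59.6%, and replicate 3, whose list is the shortest, at 12 members (1.82%, 0.941 to 3.15%) and 8.63%, against 8.32%. Menin, the longest list, had the highest mean number of satellites in both classes. Around non-isolated regions its mean was 7.54 per region, beside 1.98 for each serum. Around members its mean was 0.702, beside 0.390 and 0.474 for the sera.

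Satellite peaks were densest within 5 kb of members. Menin satellites had a density of 1.97 peaks per 100 kb of flank within 5 kb of the edge and 0.174 at 100 to 200 kb, 11.3 times less. Serum 9175 went from 1.07 to 0.168 (6.40 times), serum 9172 from 0.787 to 0.132 (5.94 times) and H3K4me3 replicate 1 from 0.696 to 0.163 (4.26 times). Many satellites nevertheless lay further out: 46 of the 214 of H3K4me3 replicate 1 lay within 5 kb and 86 at 50 to 100 kb, and of the 464 of Menin 130 and 139 did. In replicate 1 the density from 10 to 100 kb, 0.126 to 0.130, was below that at 100 to 200 kb. From 25 kb outwards the density of each of these lists was between 0.127 and 0.210 peaks per 100 kb. Around non-isolated regions the densities differed less with distance, with 5.94 and 3.17 for Menin (1.87 times) and 1.50 and 0.843 for serum 9175 (1.78 times). Their flanks can also hold other regions with their own satellites, which the flanks of members cannot, so the profiles are not directly comparable. Replicate 3 had too few satellites to follow with distance, 13 peaks within 100 kb of members. Within 5 kb of members there were 130 Menin satellites at 88 regions, 71 of serum 9175 at 62, 52 of serum 9172 at 45 and 46 of H3K4me3 replicate 1 at 40.

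**Figure D5:**
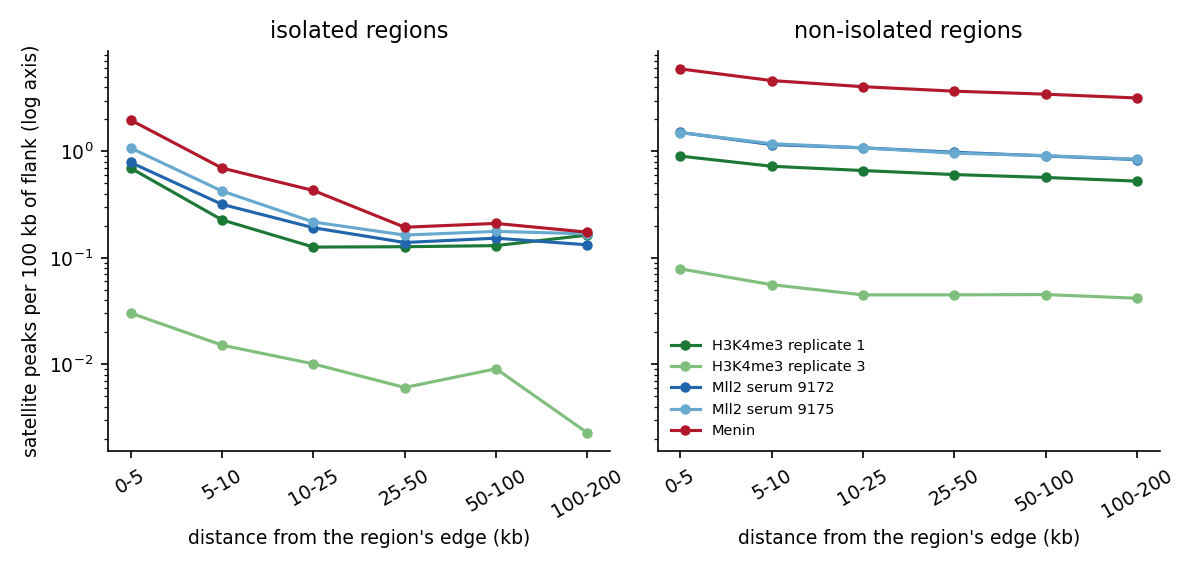
Satellite peaks per 100 kb of flank (log axis) by distance from the region's edge in kb, for isolated (left) and non-isolated (right) regions and each of the 5 lists. Around isolated regions Menin has 1.97 within 5 kb and 0.174 at 100 to 200 kb, and around non-isolated regions 5.94 and 3.17.

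Merged over lists, the satellites around members made 883 sites. Menin alone held 34.5% (31.4 to 37.8%) of them, Mll2 alone 30.9% (27.9 to 34.1%) and H3K4me3 alone 14.3% (12.0 to 16.8%). Mll2 with Menin held 9.06% (7.25 to 11.1%), and all 3 marks together 5.89% (4.43 to 7.65%). Around non-isolated regions, with 29051 sites, Menin alone held 56.0%, Mll2 alone 16.9% and H3K4me3 alone 5.77%. Sites with Mll2 and Menin had a like share in both classes, 9.06% (7.25 to 11.1%) and 10.9%. A site counted as Mll2 where either serum had a peak. Of all sites around members 14.4% (12.1 to 16.9%) held peaks of both sera, and of those around non-isolated regions 12.0%. Around members 127 sites held both sera, beside 273 with Mll2 alone, 80 with Mll2 and Menin, 27 with Mll2 and H3K4me3 and 52 with all 3 marks. Most sites with Mll2 thus had a peak of a single serum, and this also held around non-isolated regions. Among sites with Mll2, the share with both sera was lower around members.

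Satellites had lower median folds than members, an order that the definitions favour. Members needed a peak in every list, and the fold of a region is that of its strongest peak. An H3K4me3 satellite, in contrast, lacks an overlapping peak of the other H3K4me3 library. The part of these choices in the difference was not tested. The median fold enrichment of satellites was 7.94 in H3K4me3 replicate 1, where the median of the members was 44.0. In replicate 3 it was 8.46 against 36.5. For serum 9172 it was 8.21 against 15.7, for serum 9175 it was 8.78 against 20.4, and for Menin it was 9.19 against 12.8. A satellite exceeded its own region's fold in 7 of 214 cases in H3K4me3 replicate 1, 3 of 13 in replicate 3, 28 of 258 for serum 9172, 21 of 313 for serum 9175 and 66 of 464 for Menin. Menin satellites thus came closest to the level of their region, apart from the few of replicate 3.

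The member with the most satellites was chr9:61218245-61222996, 4752 bp wide and with a nearer gap of 531 kb, which had 34. Menin made 22 of them, serum 9175 made 6 and serum 9172 and H3K4me3 replicate 1 made 3 each, while replicate 3 had none. The region itself had 342 and 192 H3K4me3 tags per kb, 67.3 and 46.6 with the sera and 61.4 for Menin, which was above the median of members for H3K4me3 and Menin and below it for both sera. At chr3:101180358-101182762, with 22 satellites, Menin again made 15. At chr1:90595383-90599650, with 19, serum 9172 made 8, Menin 7 and serum 9175 4. Menin made the most satellites at 3 of the 5 members with the highest counts, and a serum did at the other two.

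Members without a satellite of any list numbered 306 (46.3%, 42.4 to 50.2%), and 186 (28.1%, 24.7 to 31.7%) had no other peak of any list within 200 kb. The 306 regions had lower medians than the 355 with a satellite, in width and in every library. Their median width was 1953 bp against 2072 bp, and their H3K4me3 medians were 192 against 214 tags per kb in replicate 1 and 115 against 136 in replicate 3. The sera had 68.3 against 71.1 and 60.2 against 61.3 tags per kb, and Menin had 54.1 against 58.8. The quartiles overlapped in all of these measures.

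Distances between the summits of the lists were short at members, which the choice of regions favours. Each list needed a peak over the same region, of at most 5000 bp. From the midpoint of the region, the median distance of a list's summit at members was between 161 bp (H3K4me3 replicate 3) and 224 bp (Menin). The part of the choice in the distances between summits was not tested. The median distance between the summits of the strongest peaks was 84 bp between the sera, against 74 bp at non-isolated regions. It was 176 bp against 152 bp between serum 9175 and Menin, and 204 bp against 192 bp between serum 9175 and H3K4me3 replicate 1. Between the H3K4me3 libraries it was 80 bp against 49 bp, with upper quartiles of 262 and 208 bp. These medians between summits were longer at members, but by less than the spread between the quartiles. From serum 9172 to H3K4me3 replicate 3 they were nearly equal, at 157 and 158 bp.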

How the data were processed

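Peak lists of 5 of the 90 samples were used, and the other samples were not analysed here. Per the file headers, the authors called peaks with MACS 1.4.2 in each library by itself against 1 input, with a p cutoff of 1e-05 and 1 tag kept per position. The submitters' processing notes name the build mm9 and, for the series as a whole, CASAVA 1.8 and Bowtie 0.12.9. Deposited tag counts give the ChIP tags within each peak and carry no normalization. The fold enrichment, as deposited, is a ratio to the background estimated by MACS, and the deposited score is minus 10 times the log10 of the p-value. The deposited false discovery rate is in percent and was not used. Keeping 1 tag per position limits what a strong narrow peak can gather, which can compress the strongest H3K4me3 values.

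Peaks were merged on overlap of at least 1 bp and gaps were measured from edge to edge. Of 38 autosomal regions with a neighbour on 1 side only, 27 met the conditions on lists and width and were left out. Members and comparisons were chosen with earlier results of these data known. Shares are of regions above the median of the non-isolated regions. Named regions are a selection from the 5 with the largest gap, the 5 highest and 3 lowest per library (H3K4me3 by replicate 1), the 5 widest, the 3 narrowest, the 5 with the most satellites and the 3 on either side of each limit. Sequence features were planned but need a genome of build mm9, which was not used here. Alternatives were other limits, neighbours, overlaps, scores, widths, windows, measures and comparison regions, and each H3K4me3 library left out. The scripts were tested on simulated lists with planted isolated regions and satellites. Python 3.11.15, pandas 2.3.3, numpy 2.4.6 and scipy 1.17.1 were used.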

Additional observations from a re-analysis of the deposited data

Results flagged for a closer look

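The median tags per kb of isolated regions, divided by that of non-isolated regions, was 0.931 with serum 9172 and 1.03 with serum 9175. The ratios lie on either side of 1. With serum 9175, however, 53.7% (49.8 to 57.6%) of isolated regions exceeded the non-isolated median, an interval that includes 50%. By fold enrichment 55.2% (51.3 to 59.1%) did. Per kb of the H3K4me3 region, with tags of peak parts outside it counted too, both ratios were above 1, at 1.01 and 1.13. At matched H3K4me3 both sera exceeded the class median at more than 50% of isolated regions (56.0 and 66.3%). Each serum has 1 library, and the difference between them was not tested.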

How the results depend on the processing

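Of 167 values under other settings for 16 results, 108 stayed within the interval of the reported value or, for the number of members, within 1.5 times; the cause of the other changes was not tested. In all, 6 shares crossed 50%, 4 of them with intervals that include 50%. These were the share of wider members (43.6 to 50.56% over the H3K4me3 replicates left out, the higher value without replicate 3), serum 9172 per kb of the H3K4me3 region (51.13%), Menin fold enrichment (56.73%), serum 9172 and Menin by fold at matched H3K4me3 (47.35 and 57.64%) and serum 9175 with a limit of 500 kb (48.18%). The number of members was 1732, 358 and 137 with limits of 100, 300 and 500 kb, 358 with peaks of either H3K4me3 library as neighbours, and from 360 to 633 with 1 H3K4me3 replicate left out.

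Shares above the non-isolated median changed as follows. With 100 kb they were 38.16 and 42.09% (H3K4me3 replicates 1 and 3), 48.9% (serum 9172) and 46.07% (Menin). With 500 kb they were 27.74, 28.47, 36.5, 48.18 (serum 9175) and 30.66%, and at matched H3K4me3 51.82% (serum 9172) and 37.96% (Menin). Replicate 3 gave 30.45% with neighbours of either library and 38.35% with a width of at most 3000 bp, and replicate 1 gave 28.01% with a score of at least 100. Leaving out H3K4me3 replicate 3, with members chosen anew, gave 36.67% for replicate 1. Leaving either replicate out of the matching only, with the 661 members kept, gave 61.72 to 66.57% for serum 9175 at matched H3K4me3. Fold enrichment gave 44.18 and 38.58% for H3K4me3, and at matched H3K4me3 58.25% (serum 9175). Per kb of the H3K4me3 region, serum 9175 had 61.42% and Menin 45.69%.

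Shares with a satellite, for H3K4me3 replicate 1, serum 9172, serum 9175, Menin and any list, were 30.66, 36.61, 38.51, 43.07 and 65.88% with a limit of 100 kb, 21.17, 19.71, 19.71, 16.79 and 41.61% with 500 kb, 16.34, 17.85, 21.33, 22.39 and 39.49% in a window of 50 kb, and 45.39, 39.49, 45.69, 38.28 and 71.86% in one of 200 kb. With 300 kb serum 9175, Menin and any list had 22.91, 21.51 and 46.65%. With a score of at least 100 the sera had 15.28 and 16.41%, Menin 15.84%, any list 37.34% and H3K4me3 replicate 3 0.4243%.

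No paired analysis was possible because the replicate numbers name only the H3K4me3 libraries and each protein has 1 library. Depth limits which peaks were called, so bare flanks hold no called peak at 11550409 to 21936546 kept tags.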

Other observations

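Chromosome X lies outside the choice of regions and was described by the same conditions. Of its 282 regions with peaks of all 5 lists and at most 5000 bp, 39 were isolated (13.8%, 10.0 to 18.4%), against 4.64% (4.30 to 4.99%) on the autosomes. Of its 85 regions with gaps of more than 200 kb, 45.9% (35.0 to 57.0%) met the conditions on lists and width, against 66.0% on the autosomes. The medians at isolated and non-isolated regions of chromosome X were 177 and 229 tags per kb in H3K4me3 replicate 1 and 102 and 126 in replicate 3. With serum 9172 they were 51.7 and 52.5, with serum 9175 they were 43.3 and 39.5, and for Menin they were 39.1 and 39.2. Within chromosome X, H3K4me3 was thus lower at isolated than at non-isolated regions in both libraries, and Menin and serum 9172 differed little. Non-isolated autosomal regions had 266 and 165 tags per kb for H3K4me3, 74.8 and 58.6 with the sera and 60.9 for Menin. Signal was thus lower on chromosome X in each library, and the part of this in the shares above was not tested.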
